A study of Homo sapiens with 6 samples.

Results

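The MYC and MAX network was described from the rows of the count file with the symbols MYC, MYCL, MYCN, MAX, MXD1, MXD4, MXI1, MNT, MGA and MLX: 10 genes of the 17081 in the file. They were chosen by symbol and not by a cutoff on values, though earlier results of these data were known. DMS114, an established human line of small cell lung cancer, was grown as tumour that invades along the sciatic nerve, and RNA was measured in 3 pieces from the distal and 3 from the proximal invaded region. Both groups held the same cell line, and the labels name no allele, agent, age, host strain or day for either. Whether replicates came from separate animals is not given, so a p-value reflects the spread among these 6 pieces and that spread may be technical. The design sets the far end of the invaded nerve against the near end.

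The network consists of basic helix-loop-helix leucine zipper proteins that bind DNA as pairs. MYC proteins pair with MAX and activate genes of growth and ribosome production through the E-box, the DNA word CACGTG. MXD proteins, MXI1, MNT and MGA compete for MAX and, as pairs with it, repress; MLX is a second hub, which pairs with some of the repressors and with MLXIP (MondoA) and MLXIPL (ChREBP), factors that respond to glucose. In small cell lung cancer, amplification of MYC, MYCL or MYCN is a recurrent and usually mutually exclusive event.

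The promoters below show where the E-box lies in genes of the network itself. Promoter sequence was matched for 9 of the 10 genes in the RefSeq table for GRCh38.p14, and MYC had no entry. Each window runs from 250 bases before to 50 after the annotated start, taken as position 0. CACGTG, which reads the same on both strands, was in 3 of these 9 windows, beside 7.43% of all 27305 promoters in the table and 10.1% of the 10675 whose genes were tested here. The windows are those of MXD4 (chr4:2262060-2262359, minus strand, motif at -238), MNT (chr17:2401011-2401310, minus strand, motif at -193) and MLX (chr17:42566850-42567149, plus strand, motif at -50). CDK4 (chr12:57752261-57752560, minus strand), a cyclin-dependent kinase gene and a MYC target, is shown beside them because its window holds 3 copies. Sequences run 5′ to 3′ with CACGTG in capitals.
MXD4: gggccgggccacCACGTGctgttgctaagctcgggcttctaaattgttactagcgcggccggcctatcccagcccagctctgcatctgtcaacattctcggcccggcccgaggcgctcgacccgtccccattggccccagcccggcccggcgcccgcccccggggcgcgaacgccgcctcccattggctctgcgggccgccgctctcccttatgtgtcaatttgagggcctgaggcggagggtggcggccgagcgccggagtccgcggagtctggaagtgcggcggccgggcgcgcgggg
MNT: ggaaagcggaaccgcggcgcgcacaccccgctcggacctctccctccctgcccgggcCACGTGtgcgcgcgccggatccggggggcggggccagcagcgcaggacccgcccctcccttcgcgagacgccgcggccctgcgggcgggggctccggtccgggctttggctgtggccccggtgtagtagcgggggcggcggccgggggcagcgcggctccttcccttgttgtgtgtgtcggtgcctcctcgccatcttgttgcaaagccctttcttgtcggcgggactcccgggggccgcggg
MLX: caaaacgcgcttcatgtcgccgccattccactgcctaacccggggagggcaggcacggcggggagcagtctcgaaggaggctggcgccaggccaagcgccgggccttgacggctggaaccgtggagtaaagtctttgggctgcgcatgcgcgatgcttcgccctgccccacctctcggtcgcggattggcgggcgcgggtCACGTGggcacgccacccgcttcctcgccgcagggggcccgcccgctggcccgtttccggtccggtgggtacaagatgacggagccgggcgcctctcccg
CDK4: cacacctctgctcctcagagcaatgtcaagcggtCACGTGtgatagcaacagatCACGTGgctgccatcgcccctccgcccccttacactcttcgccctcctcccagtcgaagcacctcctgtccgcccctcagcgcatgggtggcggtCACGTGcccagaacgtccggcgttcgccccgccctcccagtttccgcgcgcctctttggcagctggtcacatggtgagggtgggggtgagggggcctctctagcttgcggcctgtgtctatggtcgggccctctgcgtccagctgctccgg
A match is a description of these letters and does not show binding.

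Total counts were 16171106 to 24217043 in the distal and 21865148 to 26116191 in the proximal libraries. Distal 3 had the lowest total, 16171106. Of the markers of the labelled tumour type, YAP1, a Hippo pathway coactivator that marks a non-neuroendocrine subtype, averaged 177 CPM (counts scaled to library size, with TMM factors) and SYP (synaptophysin) 60.25 CPM, while NEUROD1, which defines a neuroendocrine subtype, averaged 1.33 CPM. The libraries numbered 3 stood apart in skeletal muscle reads. All 18 muscle markers on the list had reads, and their summed level was 23.9, 47.4 and 2744 CPM in distal 1, 2 and 3, against 27.6, 58.6 and 405 CPM in proximal 1, 2 and 3. Schwann cell markers summed to 78.5 to 126 CPM in distal and 64.9 to 161 CPM in proximal tumour. In such bulk samples, fewer cells of a type and less RNA per cell cannot be told apart.

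MYC and MLX had the highest length-scaled levels of the network. In CPM per kb of exons, MYC averaged 28.6 ± 3.96 in distal and 29.02 ± 4.03 in proximal tumour (SD, n = 3 each), and MLX 22.1 ± 2.10 in distal and 24.1 ± 1.19 in proximal tumour. Over all 6 libraries the means ran from 28.8 for MYC and 23.1 for MLX through 15.0 for MXI1, 13.8 for MXD4, 10.2 for MNT, 9.59 for MGA and 9.05 for MAX to 3.27 for MXD1, 0.945 for MYCL and 0.109 for MYCN. MLX lay apart from MXI1, MAX from MXD1, MXD1 from MYCL and MYCL from MYCN. The ranges of MYC and MLX over libraries overlapped, as did those of MXD4 and MNT, yet within a library MYC was above MLX and MXD4 above MNT in 6 of 6. The ranges of MXI1 and MXD4, of MNT and MGA, and of MGA and MAX also overlapped, and the first of each pair was above the second in 4, 4 and 5 of the 6 libraries, so that their order varied between libraries. Lengths were the summed exons of the basic transcripts in GENCODE release 29, and a gene that uses shorter transcripts than these is understated.

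**Figure D1:**
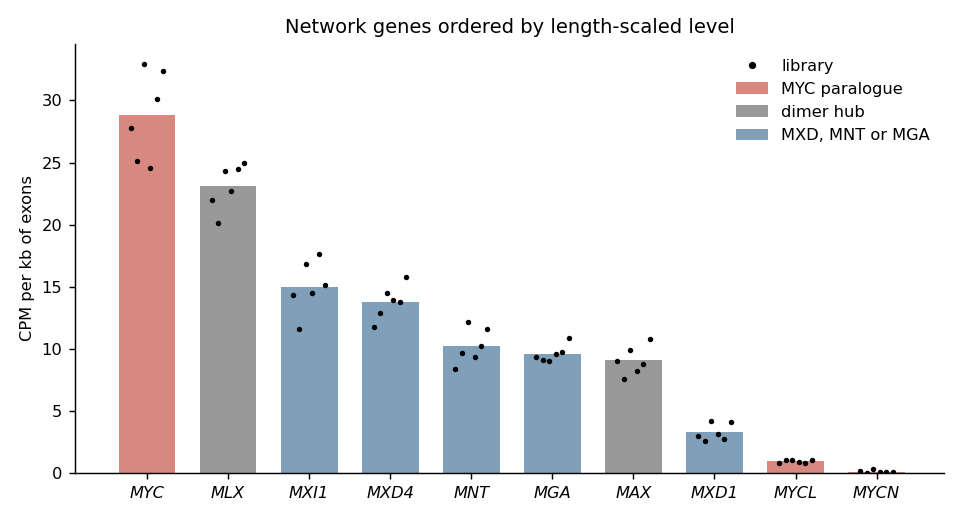
Bars give the mean level of each network gene over 6 libraries in CPM per kb of exons, and points the 6 libraries. MYC and MLX stood highest, at 28.8 and 23.1, and MYCL and MYCN lowest, at 0.945 and 0.109.

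MYC supplied nearly all the MYC family transcript. Of the length-scaled level of the 3 paralogues, MYC took 96.2% ± 0.521 in distal and 96.7% ± 0.371 in proximal tumour, and MYCL 3.31% ± 0.697 in distal and 3.09% ± 0.411 in proximal tumour (SD, n = 3 each). MYC (chromosome 8, 127735434 to 127742951, GRCh38), the growth regulator, had 83.4, 75.3 and 98.7 CPM in distal 1, 2 and 3, against 73.7, 90.4 and 97.2 CPM in proximal 1, 2 and 3. Its highest and second highest levels were in distal 3 and proximal 3, the libraries with the most muscle reads, and the groups overlapped fully. Group means of MYC were 85.8 ± 11.9 CPM in distal and 87.1 ± 12.1 CPM in proximal tumour, and its log2 fold change (distal minus proximal) was -0.02 (SE 0.13, 95% interval -0.31 to 0.27). The sign of MYC turned without distal 2 (0.060), proximal 2 (0.0045) or proximal 3 (0.064), so no direction can be given.

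MYCL and MYCN, paralogues first found in lung and neural tumours, were read at low levels. MYCL (chromosome 1, 39895428 to 39901917) had 3.97, 5.32 and 5.13 CPM in distal 1, 2 and 3, against 4.41, 4.11 and 5.12 CPM in proximal 1, 2 and 3. These values overlapped, and the log2 fold change of 0.08 (SE 0.23, 95% interval -0.42 to 0.58) became -0.0063 without distal 2. MYCN (chromosome 2, 15940550 to 15947004) had 7, 2 and 13 reads in the distal libraries, 22 in all, against 4, 6 and 2 reads in the proximal ones, 12 in all. In CPM that was 0.308, 0.0824 and 0.794 in distal 1, 2 and 3, against 0.155, 0.277 and 0.0898 in proximal 1, 2 and 3. The exact Poisson 95% interval of distal 3, 0.423 to 1.36 CPM, overlapped the interval of distal 1, 0.124 to 0.635 CPM, and that of proximal 2, 0.102 to 0.603 CPM, and lay above those of distal 2 (up to 0.298 CPM), proximal 1 (up to 0.396 CPM) and proximal 3 (up to 0.324 CPM). These intervals cover counting error only. MYCN did not pass the low-count filter. Fitted with no filter its log2 fold change was 1.10, with an adjusted p of 0.999 in edgeR's quasi-likelihood test (0.238 before adjustment). Without distal 3 there were 9 distal reads, against the 12 proximal ones, with 2 distal and 3 proximal libraries. Distal 3 also held the most NEUROD1, at 6.47 CPM against at most 0.62 CPM in any other library, and the most muscle reads; their part in the MYCN value was not tested.

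**Figure D2:**
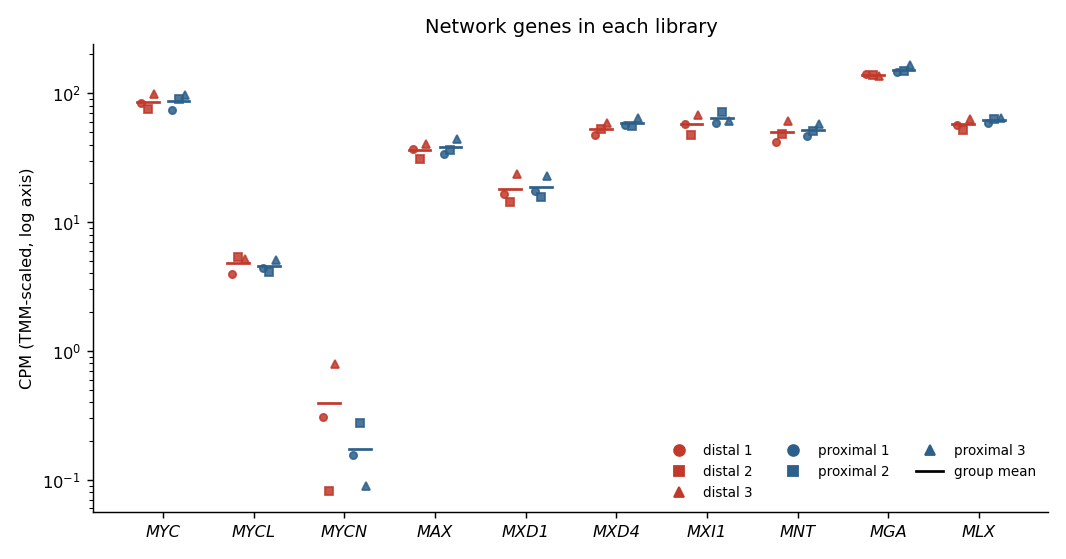
CPM of the 10 network genes on a log axis, distal in red left of proximal in blue, with the library number as the symbol and the group mean as a line. Groups overlapped for 9 genes, MGA was lower in all distal libraries, and MYCN rested on 2 to 13 reads a library.

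No network gene passed the test of distal against proximal tumour. In edgeR's quasi-likelihood test, adjusted by the Benjamini-Hochberg method over 13382 genes, 0 were called (0%). None of the 9 network genes tested was called, and each had the adjusted p 0.9997. An unadjusted p under 0.05 was reached by 178 genes in all (1.33%) and by 0 of the 9. DESeq2 (0.00749% of all genes called) and limma-voom (0% called) likewise called 0 of the 9, and neither gave any of them an unadjusted p below 0.05. The log2 fold change was below 0 in 8 of the 9, beside 48.4% of all genes tested, and above 0 in MYCL. Their median was -0.07, beside 0.00 over all genes tested. The 95% interval lay within 2-fold in either direction for all 9, beside 84% of all genes, so larger differences are outside those intervals.

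MAX (chromosome 14, 65006101 to 65102695), the obligate partner of MYC, had 37.0, 31.1 and 40.7 CPM in distal 1, 2 and 3, against 33.7, 36.1 and 44.3 CPM in proximal 1, 2 and 3. Both libraries numbered 3 were the highest for MAX, and the groups overlapped. Its log2 fold change was -0.07 (SE 0.14), and it was 0.028 without distal 2 and 0.056 without proximal 3. The length-scaled level of MAX was 10.6% ± 0.678 of the summed level of its partners (the MYC paralogues, MXD1, MXD3, MXD4, MXI1, MNT and MGA) in distal and 10.6% ± 0.815 in proximal tumour (SD, n = 3 each), with 9.92% to 11.5% over the libraries. This is a ratio of transcripts and says nothing of protein.

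The repressor MGA was the 1 network gene whose groups did not overlap. MGA (chromosome 15, 41621224 to 41769940), a large protein that joins MAX to the Polycomb complex PRC1.6, had 142, 137 and 136 CPM in distal 1, 2 and 3, against 146, 148 and 165 CPM in proximal 1, 2 and 3. Every distal value lay below every proximal one, with distal 1 and proximal 1 closest, and proximal 3 highest. Such a gap, distal lower, was found for 3.09% of all genes tested, and a gap in either direction for 6.28%. The mean of MGA was 139 ± 3.02 CPM in distal and 153 ± 10.6 CPM in proximal tumour, its log2 fold change -0.14 (SE 0.08, 95% interval -0.32 to 0.04), and its adjusted p 0.9997 in edgeR's quasi-likelihood test (0.108 before adjustment). With each library left out in turn the value of MGA ran from -0.18 to -0.08, and without both libraries numbered 3 it was -0.07.

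The MXD family and MNT recruit the SIN3 corepressor, and in each of these genes the groups overlapped. MXD1 (chromosome 2, 69915109 to 69942945), a gene typically induced as cells differentiate, had 16.7, 14.3 and 23.6 CPM in distal 1, 2 and 3, against 17.5, 15.6 and 22.8 CPM in proximal 1, 2 and 3. Its distal and proximal libraries numbered 3 were the highest, above the other 4. The log2 fold change of MXD1 was -0.04 (SE 0.21), and it was 0.014 without distal 1, 0.11 without distal 2 and 0.13 without proximal 3. MNT (chromosome 17, 2384073 to 2401060), the most broadly expressed MYC antagonist, had 42.0, 48.4 and 60.6 CPM in distal 1, 2 and 3, against 46.7, 50.9 and 57.8 CPM in proximal 1, 2 and 3. The same pair of libraries was highest, and its log2 fold change of -0.04 (SE 0.14) became 0.069 without distal 1 and 0.044 without proximal 3.

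MXD4 and MXI1, the MXD family genes with the highest length-scaled levels, kept log2 fold changes below 0 in every fit. MXD4 (chromosome 4, 2247432 to 2262109) had 47.8, 52.3 and 58.9 CPM in distal 1, 2 and 3, against 56.6, 55.9 and 63.9 CPM in proximal 1, 2 and 3. Distal 3 lay within the proximal range, and the log2 fold change was -0.15 (SE 0.11, 95% interval -0.39 to 0.09). MXI1 (chromosome 10, 110207605 to 110287365) had 57.9, 47.1 and 68.1 CPM in distal 1, 2 and 3, against 58.7, 71.3 and 61.3 CPM in proximal 1, 2 and 3. Distal 2 was low and proximal 2 high, and the log2 fold change of MXI1 was -0.14 (SE 0.14, 95% interval -0.45 to 0.16). With each library left out in turn MXD4 ran from -0.23 to -0.09 and MXI1 from -0.28 to -0.02, and without both libraries numbered 3 MXI1 was at -0.31, with an adjusted p of 0.999 in edgeR's quasi-likelihood test (0.0420 before adjustment). Without distal 3 the same test gave an unadjusted p of 0.0425 for MXI1 and 0.0467 for MXD4, with an adjusted p of 0.999 for each. The share of all genes under 0.05 in these refits is not given here.

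MLX (chromosome 17, 42567100 to 42573203) had 56.9, 52.1 and 63.0 CPM in distal 1, 2 and 3, against 58.8, 63.4 and 64.7 CPM in proximal 1, 2 and 3. Distal 3 lay within the proximal range. MLX was at -0.12 in log2 fold change (SE 0.10, 95% interval -0.34 to 0.10). The exons of MLX share 770 bases with those of PSMC3IP on the other strand, which had 21.9 to 24.5 CPM. The strand setting of the counts is not given in the sources used here. Whether reads over the shared bases were counted for MLX, for PSMC3IP or for neither is therefore not known. The length-scaled level of MLX carries that uncertainty.

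**Figure D3:**
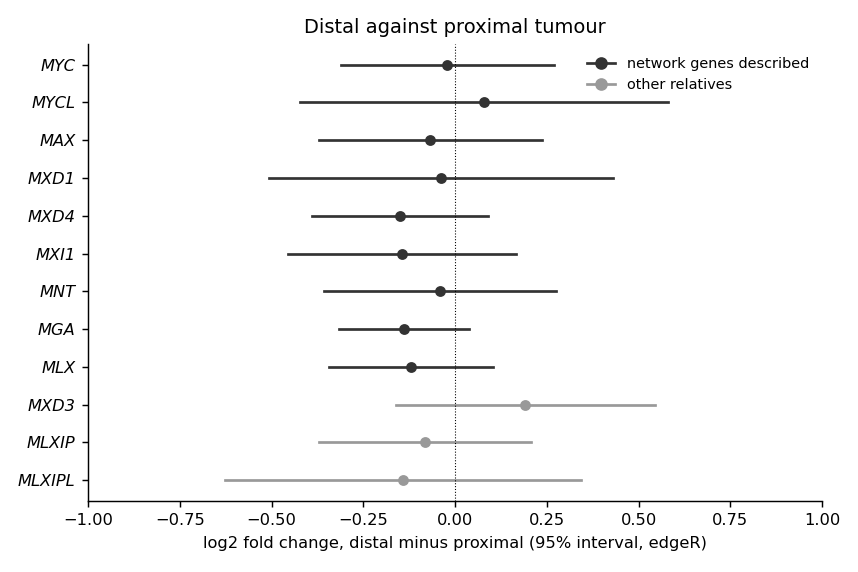
Log2 fold change, distal minus proximal, with its 95% interval from edgeR for the 9 network genes tested (black) and 3 relatives (grey). Every interval spans 0, and all lie within 1 of it.

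The network genes varied over the 6 libraries by different amounts. The coefficient of variation over the 6 libraries was 7.15% for MGA, 8.03% for MLX, 9.88% for MXD4, 12.4% for MYC, 12.8% for MAX, 13.7% for MNT, 14.03% for MXI1 and 21.1% for MXD1. Counting error alone accounts for 1.78% (MGA) to 5.05% (MXD1) in these 8 genes. The median over the 9584 genes that averaged 10 CPM or more was 8.96%, with quartiles of 6.55% and 12.3%. MYCL, at 12.5%, had a counting part of 9.95%. For MYC, MAX, MXD1, MXD4 and MNT, 5 of the 9 tested, distal 3 and proximal 3 were the 2 highest libraries, which held for 11.4% of all genes tested. This pattern was picked out after the values were seen, and the part of the muscle reads in it was not tested. Without both libraries numbered 3 the log2 fold changes were -0.05 for MYC, -0.03 for MAX, -0.10 for MXD1, -0.17 for MXD4 and -0.11 for MNT.

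**Figure D4:**
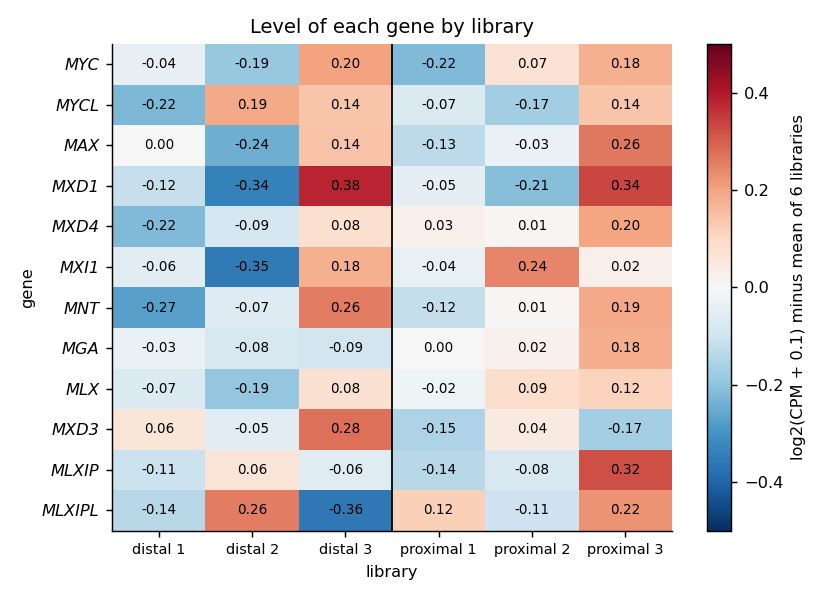
Level of 9 network genes and 3 relatives in each library as the log2 difference from the mean of the 6 libraries, with distal left of proximal. MXD1 was at 0.38 in distal 3 and 0.34 in proximal 3, MYC at 0.20 in distal 3 and 0.18 in proximal 3, and MGA was above 0.1 in proximal 3 only.

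The balance of MYC family to MXD family transcripts did not separate the groups. The log2 ratio of the summed length-scaled level of MYC, MYCL and MYCN to that of MXD1, MXD3, MXD4, MXI1 and MNT was -0.52, -0.61 and -0.60 in distal 1, 2 and 3, against -0.79, -0.62 and -0.57 in proximal 1, 2 and 3. It was below 0 in all 6 libraries, the groups overlapped, and proximal 1 was lowest. Among the antagonists with MGA included, MXI1 took 26.6% ± 2.54 in distal and 27.5% ± 2.79 in proximal tumour, and MXD4 24.5% ± 1.54 in distal and 25.3% ± 1.24 in proximal tumour (SD, n = 3 each). MXD3, a relative linked to dividing cells, took 6.91% ± 0.188 in distal and 5.66% ± 0.559 in proximal tumour, and its 3 shares in distal tumour lay above the 3 in proximal tumour. The shares of MXD1, MXD4, MXI1, MNT and MGA overlapped between groups. No rate over all genes is available for such shares, and the gap in the MXD3 share was not tested. In CPM the groups of MXD3 overlapped, with a log2 fold change of 0.19 (SE 0.16) and, in edgeR's quasi-likelihood test, 0.9997 as adjusted p.

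The partners of MLX were led by MLXIP, the glucose sensor MondoA, over MLXIPL, or ChREBP. MLXIP took 76.1% ± 3.13 of their summed length-scaled level in distal and 74.9% ± 2.48 in proximal tumour (SD, n = 3 each). That sum was 7.11 ± 0.692 CPM per kb in distal and 7.61 ± 1.20 CPM per kb in proximal tumour, below the level of MLX itself in every library. The log2 fold change was -0.08 (SE 0.13) for MLXIP, or 0.075 without proximal 3, and -0.14 (SE 0.22) for MLXIPL. Of 9 tested targets of these factors 3 were above and 6 below 0, their median log2 fold change was -0.13, and 0 passed. The median was -0.051 without proximal 2, -0.074 without proximal 3 and -0.084 without distal 1. ACLY (ATP citrate lyase) was at -0.17 (SE 0.09), ACACA (acetyl-CoA carboxylase) at -0.13 (SE 0.08) and SCD (stearoyl-CoA desaturase), the most abundant, at -0.16 (SE 0.12). ACACA had 204, 205 and 210 CPM in distal 1, 2 and 3, against 212, 223 and 244 CPM in proximal 1, 2 and 3. Its groups did not overlap, the 1 such case among these 9 targets, beside 3.09% of all genes with distal lower. TXNIP and ARRDC4, arrestin-like targets by which MLXIP activity is usually read, are given outside the naming rule. TXNIP had 29.5, 47.5 and 66.4 CPM in distal 1, 2 and 3, against 49.9, 55.0 and 40.7 CPM in proximal 1, 2 and 3. The log2 fold change of TXNIP was -0.02 (SE 0.30), and it was 0.22 without distal 1 and 0.073 without proximal 2. ARRDC4 had 36.4, 35.8 and 62.2 CPM in distal 1, 2 and 3, against 36.5, 40.7 and 39.6 CPM in proximal 1, 2 and 3. Distal 3 was the highest library for both, and the log2 fold change of ARRDC4, 0.20 (SE 0.21), was -0.11 without it.

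Genes that MYC is known to activate did not differ between distal and proximal tumour by the test. Of 42 tested, 22 were above and 20 below 0 in log2 fold change, with a median of 0.00 beside 0.00 over all genes, and 0 passed. NPM1 (nucleophosmin, a nucleolar chaperone), the most abundant, had 1853 ± 141 CPM in distal and 1745 ± 178 CPM in proximal tumour (SD, n = 3 each). CDCA7 had 78.6, 77.2 and 77.7 CPM in distal 1, 2 and 3, against 64.7, 71.4 and 71.05 CPM in proximal 1, 2 and 3. Its groups did not overlap, as for 3 of these targets on the higher side (3.2% of all genes) and 1 on the lower, and its log2 fold change was 0.17 (SE 0.08, adjusted p 0.9997 in edgeR's quasi-likelihood test, 0.0694 before adjustment). EIF4EBP1, a brake on cap-dependent translation, was at 0.14 (SE 0.08). CACGTG was in 16 of the 35 promoter windows matched for these targets (45.7%). Log2 fold changes of the 16 ran from -0.08 to 0.10 around a median of 0.0081, and those of the 19 without it from -0.16 to 0.17 around 0.0065. CDK4, whose window is printed above, had 200, 177 and 212 CPM in distal 1, 2 and 3, against 192, 199 and 172 CPM in proximal 1, 2 and 3.

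Of 14 genes that MYC is known to repress, 5 were higher and 9 lower in distal tumour, and 0 passed. Their median of -0.04 was 0.0079 without proximal 2, -0.13 without proximal 1 and -0.11 without distal 3. THBS1 (thrombospondin 1, an angiogenesis inhibitor) had 10.3, 9.06 and 6.17 CPM in distal 1, 2 and 3, against 11.4, 12.7 and 10.4 CPM in proximal 1, 2 and 3. Its groups did not overlap, the 1 such case among these 14 genes, beside 3.09% of all genes with distal lower, and its log2 fold change was -0.43 (SE 0.21), or -0.25 without distal 3. PDGFRB (a growth factor receptor, and a marker of fibroblasts) was at -0.35 (SE 0.18), or -0.19 without distal 3. All 8 fibroblast markers on the list, PDGFRB among them, had reads. Their summed level was 5607, 5519 and 4541 CPM in distal 1, 2 and 3, against 6135, 5872 and 5426 CPM in proximal 1, 2 and 3. COL3A1 made up most of this sum, with a mean of 4572 CPM over the 6 libraries. COL3A1, DCN and PDGFRA, like PDGFRB, were lowest in distal 3, and LUM was lowest in proximal 3. COL1A1, COL1A2 and FAP were instead highest in the libraries numbered 3. COL1A1 had 38.3 CPM in distal 3 and 62.2 CPM in proximal 3. DCN averaged 482 CPM and LUM 404 CPM over the 6 libraries. COL1A1 averaged 27.0, COL1A2 16.6, FAP 1.66 and PDGFRA 0.710 CPM, so FAP and PDGFRA were read at low levels. The sum therefore follows COL3A1, DCN and LUM and not the list as a whole. The markers gave no single order of fibroblast content, and the part of that content in the PDGFRB value was not tested. FTH1 (ferritin heavy chain), the most abundant, was at 0.05 (SE 0.08). GADD45A, a stress-induced growth arrest gene named after its values were seen, had 3.52, 3.83 and 12.8 CPM in distal 1, 2 and 3, against 3.17, 3.28 and 4.76 CPM in proximal 1, 2 and 3. Distal 3 stood apart, and the log2 fold change of GADD45A, 0.83 (SE 0.52), was -0.021 without it.

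Cofactors of both arms of the network were tested, and 0 passed. Of 18 MYC coactivators 5 were higher and 13 lower in distal tumour (median -0.04, and -0.0058 without distal 3), with TRRAP, the scaffold of the acetyltransferase complexes that MYC recruits, at -0.21 (SE 0.10), EP300, an acetyltransferase, at -0.24 (SE 0.12), and BPTF, a remodeller subunit and the most abundant, at -0.15 (SE 0.11). Of 18 SIN3 subunits 9 had higher and 9 lower values (median 0.01). SIN3A, the scaffold that MXD proteins and MNT bind, had 141, 140 and 149 CPM in distal 1, 2 and 3, against 151, 168 and 180 CPM in proximal 1, 2 and 3. Every distal value of SIN3A lay below every proximal one, as for 2 of the 18 subunits, ARID4B being the other, and 3.09% of all genes. Its log2 fold change was -0.21 (SE 0.09), with an adjusted p of 0.9997 in edgeR's quasi-likelihood test (0.0328 before adjustment, where 1.33% of all genes were under 0.05), and it ran from -0.28 to -0.15 with each library left out. SAP130 was at -0.18 (SE 0.13) and RBBP4, the most abundant, at 0.06 (SE 0.09), or -0.0012 without proximal 2.

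Of 9 further PRC1.6 subunits, the complex that MGA and MAX join, 4 were higher and 5 lower in distal tumour (median -0.01), with YAF2 at 0.18 (SE 0.11) and CBX3, a heterochromatin protein and the most abundant, at 0.11 (SE 0.09). Groups did not overlap for 1 of the 9, PCGF6, named for this gap, with distal higher, beside 3.2% of all genes. PCGF6 had 65.5, 62.1 and 63.2 CPM in distal 1, 2 and 3, against 62.0, 61.3 and 58.9 CPM in proximal 1, 2 and 3. Of 20 regulators of MYC protein turnover 12 had higher and 8 lower values (median 0.01), with GSK3B, a kinase that marks MYC for destruction, at -0.17 (SE 0.09), HUWE1, a ubiquitin ligase, at -0.18 (SE 0.12) and SET, a phosphatase inhibitor and the most abundant, at 0.04 (SE 0.08). The adjusted p of every gene on these lists was 0.9997 by edgeR's quasi-likelihood test.

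**Figure D5:**
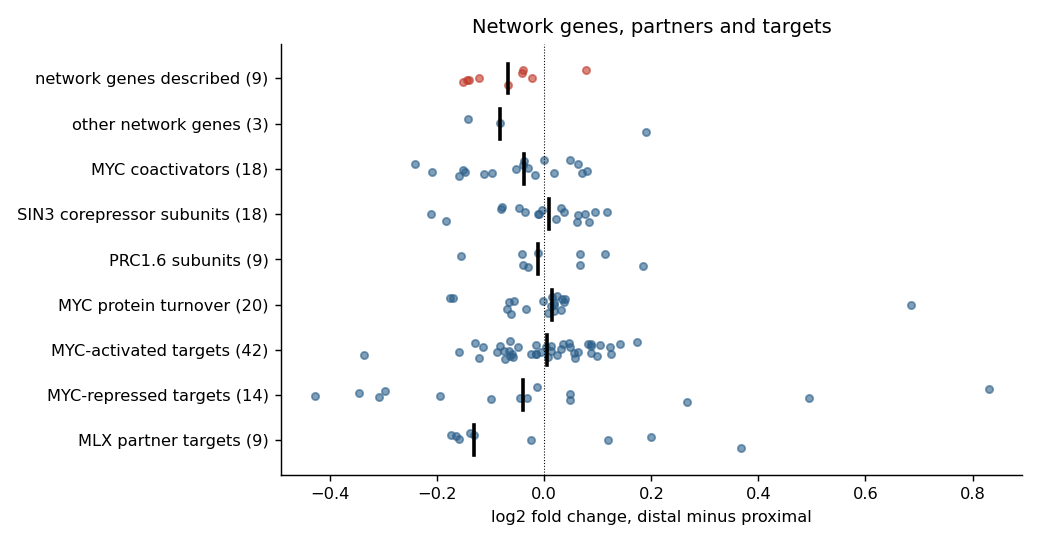
Log2 fold change, distal minus proximal, of each tested gene by list, with the number of genes in brackets and the median as a black line. Medians lay between -0.13 and 0.01.

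The genes whose pattern over the 6 libraries was closest to that of MYC were TULP4, TTLL4 and ZNF333. Closeness was the root mean square difference of centred log2 levels over the 6 libraries, at 0.042, 0.043 and 0.043 for these 3, beside a median of 0.209 over the 9583 genes compared. TULP4 had 34.8, 33.05 and 45.0 CPM in distal 1, 2 and 3, against 33.5, 39.5 and 42.5 CPM in proximal 1, 2 and 3. Among so many genes and only 6 libraries, close matches occur without any relation.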

How the data were processed

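The deposited values are unnormalized read counts by gene symbol. The submitters' processing notes name GRCh38 as build and, as tools, featureCounts 2.0.1, STAR 2.7.3a, Trimmomatic 0.39, DESeq2 and bcl2fastq. Not given in the sources used here are the annotation, the strand setting, the host and how its reads were handled, so host reads aligned to human genes could be part of a count. Libraries were TruSeq poly(A) from RNA that had passed an integrity threshold, per the labels' protocols.

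Counts were analysed in R 4.3.3 with edgeR 4.0.16: expression filter by group, TMM scaling, robust quasi-likelihood test of distal against proximal with no covariate, Benjamini-Hochberg adjustment at 0.05 over all genes. Standard errors were obtained as |log2 fold change| over the root of F. CPM used TMM-scaled library sizes, and centred levels a pseudocount of 0.1 CPM. Positions came from RefSeq (GRCh38.p14, 10 of 10 symbols matched) and exon lengths from GENCODE release 29. The procedure was checked on simulated counts. No 2 libraries were as close as sampling noise: chi-square per degree of freedom was at least 5.81, for distal 1 and proximal 1.

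Members and lists were chosen with earlier results of these data known. From each list the text names the 2 genes with the lowest p and the most abundant one. For MYC it names the 3 closest genes by pattern. The alternatives were DESeq2 1.42.0, voom in limma 3.58.1, library totals or RLE in place of TMM, no filter or one of 1 CPM in 3 libraries, a replicate block, leaving out each library or both of those numbered 3, and a threshold of 0.01. Figures were drawn with matplotlib 3.10.9.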

Additional observations from a re-analysis of the deposited data

How the results depend on the processing

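Under every alternative the count of network genes called stayed at 0. DESeq2 called 1 gene over the whole table, and edgeR without distal 1 also called 1, EDIL3 in both, which is no gene of the network. MXD4, MXI1, MGA and MLX kept a log2 fold change below 0 under all alternatives. With each library left out in turn the sign turned for MYC (range -0.13 to 0.064), MYCL (-0.0063 to 0.20), MAX (-0.16 to 0.056), MXD1 (-0.27 to 0.13) and MNT (-0.19 to 0.069), for the libraries named beside each gene, and the cause was not tested. Over the same fits, median log2 fold changes ran from -0.14 to 0.075 for the 3 relatives MXD3, MLXIP and MLXIPL, from -0.028 to 0.027 for SIN3 subunits, from -0.029 to 0.057 for PRC1.6 subunits, from -0.069 to 0.023 for MYC protein turnover, from -0.019 to 0.015 for MYC-activated targets, from -0.13 to 0.0079 for MYC-repressed targets, from -0.18 to -0.051 for MLX partner targets and from -0.087 to -0.0058 for MYC coactivators. Without both libraries numbered 3 the medians were 0.060 for the relatives and 0.039 for PRC1.6 subunits. With the replicate number as a block, edgeR called 0 genes and 0 of the network, and the lowest unadjusted p among its genes was 0.115, for MXD4. Deviations of libraries with the same number correlated across genes at 0.36, -0.11 and 0.18 for numbers 1, 2 and 3. For unlike numbers the values ran from -0.32 to 0.13. These values do not settle whether the numbers pair the samples, so the main test used no pairing and the fit with the block is given beside it. Depth limits MYCN, at 2 to 13 reads a library, and MYCL, at 84 to 129 reads.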
